A study of Mus musculus with 8 samples.

Results

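The 10 genes described here code for proteins that coat lipid droplets or let them form and fuse. They are the perilipins *Plin2*, *Plin3*, *Plin4* and *Plin5*, the CIDE genes *Cidea*, *Cideb* and *Cidec*, the fat storage-inducing transmembrane (FIT) genes *Fitm1* and *Fitm2*, and *Hsd17b13*. They were taken by symbol from a table of 55416 gene identifiers, and each of the 10 symbols matched 1 identifier. The rule that took them used no measured value, but the members were chosen with earlier results of these data known. The table holds liver RNA from 8 mouse libraries, 4 of them floxed controls of the genotype Alb-cre- and 4 of the genotype Alb-cre+, in which Cre recombinase under the albumin promoter acts in hepatocytes to remove *Smpd3*, the gene of neutral sphingomyelinase 2. Both groups were on HFMCD for 9 weeks, so no group on another diet stands beside them, and the presence of Cre cannot be told apart from the loss of *Smpd3*. The labels name no strain, sex, age or time of collection, and do not say that each library is a separate animal, so that p-values measure the spread between these libraries.

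A lipid droplet is a core of neutral lipid under a single layer of phospholipid, and its proteins decide how it grows and how fast its fat is released. FIT proteins of the endoplasmic reticulum act when a droplet buds, perilipins cover its surface and limit the access of lipases, and CIDE proteins gather where droplets touch and pass lipid from the smaller to the larger. Liver that stores fat is known for much PLIN2 on its droplets, for CIDEC in large droplets, and for HSD17B13, a droplet enzyme made mostly by hepatocytes. Sphingomyelin, which the deleted enzyme cleaves, is a lipid of cell membranes and not of the droplet core.

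Expression is given in TPM, the usual unit of transcript abundance in RNA sequencing, a level scaled to transcript length and to the total of each library, so that levels of different genes can be set side by side. TPM keep no record of depth, which is unknown here. Library sums lay between 994563 and 995449 TPM. Between 12115 and 12890 genes reached 1 TPM, with floxed control 4 at the low end, and this library also had the largest share of TPM in its 20 most abundant genes (33.8%, against 28.6% to 31.4% in the other 7). The hepatocyte marker *Alb* stood between 39755 and 52162 TPM in the 8 libraries. *Smpd3* had 8.69, 10.72, 12.54 and 6.38 TPM in floxed controls 1 to 4, against 1.17, 3.03, 1.27 and 2.06 TPM in knockouts 1 to 4. The groups did not overlap in *Smpd3* (log2 difference -1.89 ± 0.24 SE, adjusted p = 0.0300 in limma; 2-sided exact permutation p = 0.0286, the smallest that 4 against 4 allows). Its adjusted p in limma was between 0.0505 and 0.0874 without floxed control 1 or 2 or without knockout 1, 3 or 4, with a log2 difference of -1.93 to -1.77. Differences below are knockout minus control in the mean of log2(TPM + 1), which understates changes of low genes, and an adjusted p is Benjamini-Hochberg over all 12710 genes that reached 1 TPM in at least 4 libraries.

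Of the 10 genes, 9 reached that level and were tested, and *Cidea* did not. None of the 9 passed an adjusted p of 0.05 in limma (smallest 0.223), where 0.102% of all genes tested passed. At an unadjusted p under 0.05, 4 of the 9 were lower in the knockout (*Cidec*, *Fitm2*, *Plin2* and *Plin5*) and 0 higher, against 2.45% of all genes lower and 5.57% higher. Groups that did not overlap were found for 3 of the 9, all lower in the knockout (*Cidec*, *Fitm2* and *Plin5*), against 1.46% of all genes in that direction and 3.29% in the other. Values were lower in 7 of the 9, against 35.4% of all genes, and the median difference of the 9 was -0.20, against 0.05 over all genes. No test was made over the 9 genes together.

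**Figure D1:**
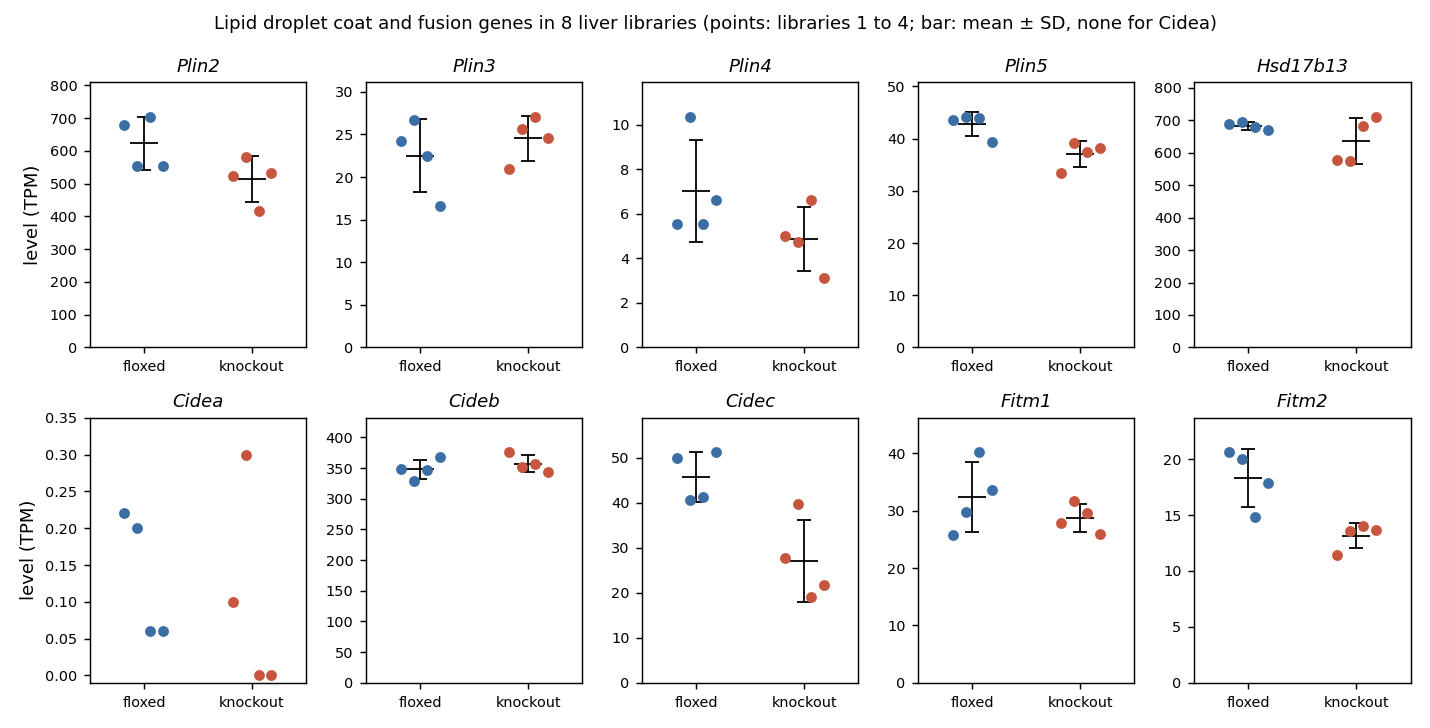
Levels in TPM (vertical axes, linear, from 0 except for a small margin under *Cidea*) of the 10 genes in the 4 floxed control and 4 knockout libraries; points are libraries 1 to 4 from left to right, bars mean and SD. *Cidec*, *Fitm2* and *Plin5* are the genes whose groups do not overlap, and *Cidea* stays at or under 0.30 TPM.

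The genomic sequence just before the start of 3 of these genes is shown because they are the members with the smallest p. It was searched for the response element of the peroxisome proliferator-activated receptors (PPARs), lipid-sensing receptors that are known to act on droplet genes. Each run holds the 250 bases before the annotated start, 5′ to 3′ on the strand of the gene, from RefSeq on GRCm38.p6. Capitals mark a match to a searched motif, and a run without capitals holds none.
Cidec, chr6:113435761-113436010, minus strand: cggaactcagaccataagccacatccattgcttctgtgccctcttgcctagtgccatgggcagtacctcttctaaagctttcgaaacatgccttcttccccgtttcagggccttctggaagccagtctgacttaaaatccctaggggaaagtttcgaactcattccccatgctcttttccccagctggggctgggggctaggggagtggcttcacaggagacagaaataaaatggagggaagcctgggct
Fitm2, chr2:163472630-163472879, minus strand: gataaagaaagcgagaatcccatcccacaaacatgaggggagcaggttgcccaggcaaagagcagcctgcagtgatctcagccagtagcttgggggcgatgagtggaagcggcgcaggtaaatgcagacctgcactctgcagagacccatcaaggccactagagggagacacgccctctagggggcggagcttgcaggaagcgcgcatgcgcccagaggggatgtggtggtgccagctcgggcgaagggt
Plin2, chr4:86670060-86670309, minus strand: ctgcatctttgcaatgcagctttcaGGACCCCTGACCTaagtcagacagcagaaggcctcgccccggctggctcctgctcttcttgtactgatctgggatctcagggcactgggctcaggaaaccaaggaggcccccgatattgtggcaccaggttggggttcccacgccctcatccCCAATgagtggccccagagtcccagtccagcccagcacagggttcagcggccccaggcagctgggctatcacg
On both strands, the motifs were AGGTCANAGGTCA (the PPAR element, a direct repeat with 1 base between), its single site AGGTCA, the E-box CACGTG, the TATA box as TATAAA and the CCAAT box. The first capitals in *Plin2*, 225 to 213 bases before the start, are a match on the opposite strand with 2 mismatches, and it includes the single site. Of 9 members whose windows were searched (11 windows, since *Cidec* and *Plin5* have another annotated start), *Plin2* alone held such a match, and 0 held a perfect one. Among all 32851 windows of this length in the table, 3.24% held the repeat with up to 2 mismatches and 0.0335% a perfect one. The single site AGGTCA was found in *Plin2*, *Plin5* and *Hsd17b13*, and in 14.02% of all windows. CCAAT was found in 4 of the 9 (*Plin2*, *Plin3*, *Plin4* and *Plin5*) and in 33.85% of all windows, TATAAA in *Cideb* and in 12.4% of all windows. CACGTG was in none of the 9 and in 6.02% of all windows; in *Plin2* these letters run across the start itself and so past the end of the window. These are matches of letters in short windows, and nothing was measured on them.

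*Cidec*, also called Fsp27, codes for the protein that drives the fusion of droplets into large ones. Its level was 49.93, 40.59, 41.34 and 51.18 TPM in floxed controls 1 to 4 and 27.70, 39.73, 18.95 and 21.82 TPM in knockouts 1 to 4. Each knockout lay under each control, but knockout 2 came within 1 TPM of the lowest control while the other 3 were at or under 27.70. The mean was 59.1% of the control mean, and the log2 difference of -0.78 ± 0.20 (SE) had an unadjusted p of 0.00258 and an adjusted p of 0.223 in limma, the 147th smallest p of the 12710 genes. Without knockout 2 the log2 difference of *Cidec* was -0.98, and its adjusted p was 0.101 in limma. Without knockout 3 it was -0.64, with an adjusted p of 0.457 in limma. *Cidec* has 2 annotated starts, and these TPM values are sums over transcripts of the gene, so they do not say which start was used.

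*Cideb*, which serves the lipidation of very low density lipoprotein as well as droplet fusion, was the most abundant CIDE gene. Floxed controls 1 to 4 held 348, 329, 346 and 367 TPM of it and knockouts 1 to 4 held 376, 351, 357 and 343 TPM, with overlapping groups (log2 difference 0.04 ± 0.07 SE, adjusted p = 0.955 in limma). The sign of this difference turned to -0.03 after median-of-ratios scaling of the libraries. In the GENCODE M21 annotation, 76.3% of the exon bases of *Cideb* lie opposite exons of *Nop9*. The kit was stranded, per the labels, but no source names the strand setting of the read assignment. How far reads of *Nop9* entered the value of *Cideb* was not tested, so that value stays uncertain. *Nop9* was listed at 7.08 to 9.07 TPM over the 8 libraries. *Cidea* is a CIDE gene known from brown fat. Floxed controls 1 to 4 listed it at 0.22, 0.20, 0.06 and 0.06 TPM, knockouts 1 and 2 at 0.10 and 0.30 TPM, and knockouts 3 and 4 at 0. With *Cidea* near 0, the CIDE transcripts of these livers were those of *Cideb* and *Cidec*.

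The share of *Cidec* in the summed TPM of the CIDE genes does not depend on how libraries are scaled. This share of *Cidec* was 12.5%, 10.97%, 10.7% and 12.2% in floxed controls 1 to 4 and 6.87%, 10.2%, 5.04% and 5.98% in knockouts 1 to 4. The groups did not overlap in this share either, and knockout 2 was again the one next to the controls. The summed TPM of the CIDE genes overlapped between the groups, at 370 to 419 TPM in the controls and 365 to 403 TPM in the knockouts.

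*Fitm2* codes for the FIT protein found in most tissues, which is needed for droplets to bud toward the cytosol. The values of floxed controls 1 to 4 were 20.61, 20, 14.84 and 17.83 TPM, and those of knockouts 1 to 4 were 11.46, 13.56, 14.01 and 13.64 TPM. All knockouts were under all controls, with floxed control 3 the closest to them. The mean was 71.9% of the control mean (log2 difference -0.44 ± 0.13 SE, unadjusted p = 0.00573, adjusted p = 0.297 in limma). *Fitm1*, the FIT gene known from skeletal muscle and heart, had the higher level of the pair in every library, at 25.78, 29.82, 40.16 and 33.57 TPM in the controls and 27.77, 31.60, 29.57 and 25.97 TPM in the knockouts. Its groups overlapped (log2 difference -0.15 ± 0.13 SE, adjusted p = 0.880 in limma), and the difference was -0.04 without floxed control 3, its highest library. The share of *Fitm2* in the summed FIT TPM overlapped as well, at 27.0% to 44.4% in the controls and 29.2% to 34.4% in the knockouts. The summed FIT level itself did not overlap, at 46.4 to 55.0 TPM in the controls and 39.2 to 45.2 TPM in the knockouts.

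Because *Fitm1* is known as a muscle gene, its level was set beside 9 markers of skeletal or smooth muscle, 2 of which reached the level for testing. Their summed level was 44.3 TPM in floxed control 1 and between 7.64 and 13.3 TPM in the other 7 libraries. Floxed control 1 had the lowest *Fitm1* of the 8 libraries, and the muscle marker *Acta1* was at 12.8 TPM there and at or under 1.10 TPM elsewhere. In the 7 libraries where *Acta1* was at or under 1.10 TPM, *Fitm1* stood at 25.97 TPM or more. Another muscle marker, *Mylpf*, was at 14.05 TPM in floxed control 1 and at 5.28 TPM in floxed control 3, the library with the highest *Fitm1*. In the remaining libraries *Mylpf* was at 1.42 to 4.56 TPM. The part of muscle RNA in the level of *Fitm1* was not tested.

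*Plin2* codes for the main perilipin of liver droplets, a protein that is broken down when it is not bound to lipid. It reached 680, 552, 703 and 554 TPM in floxed controls 1 to 4 and 522, 582, 417 and 534 TPM in knockouts 1 to 4. The groups overlapped through knockout 2, which lay above floxed controls 2 and 4, and knockout 3 was the lowest library. The mean was 82.5% of the control mean (log2 difference -0.28 ± 0.12 SE, unadjusted p = 0.0407, adjusted p = 0.602 in limma). Without knockout 3 the difference was -0.18, and without knockout 2 it was -0.34.

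*Plin5*, the perilipin that ties droplets to mitochondria in cells that burn fat, had the narrowest spread of the perilipins. Its level was 43.65, 44.16, 43.97 and 39.42 TPM in the controls and 33.37, 39.19, 37.42 and 38.24 TPM in the knockouts. The groups did not overlap, but floxed control 4 and knockout 2 were 39.42 and 39.19 TPM, and the other 3 controls lay together above them. The mean was 86.6% of the control mean (log2 difference -0.20 ± 0.09 SE, unadjusted p = 0.0437, adjusted p = 0.612 in limma).

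*Plin4*, a long perilipin known mostly from fat and muscle cells, had the lowest level of the tested members, at 5.54, 10.36, 5.54 and 6.64 TPM in the controls and 5.02, 4.74, 6.61 and 3.13 TPM in the knockouts. Knockout 3 lay above 2 of the controls, and floxed control 2 stood alone at the top. Its log2 difference of -0.44 ± 0.23 (SE; adjusted p = 0.685 in limma) was -0.26 without floxed control 2. *Plin3*, a perilipin present in most cells that moves from the cytosol onto new droplets, was at 24.27, 26.69, 22.46 and 16.59 TPM in the controls and 20.89, 25.64, 27.05 and 24.55 TPM in the knockouts. The groups overlapped, and the log2 difference of 0.13 ± 0.15 (SE; adjusted p = 0.910 in limma) was 0.00063 without floxed control 4. *Plin4* and *Plin5* are neighbours on chromosome 17.

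*Plin2* made up most of the perilipin transcripts in all libraries, at 87.2% to 90.7% of their summed TPM in the controls and 85.4% to 89.8% in the knockouts. The summed perilipin level was 617 to 775 TPM in the controls and 488 to 652 TPM in the knockouts. Both ranges overlapped between the groups.

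**Figure D2:**
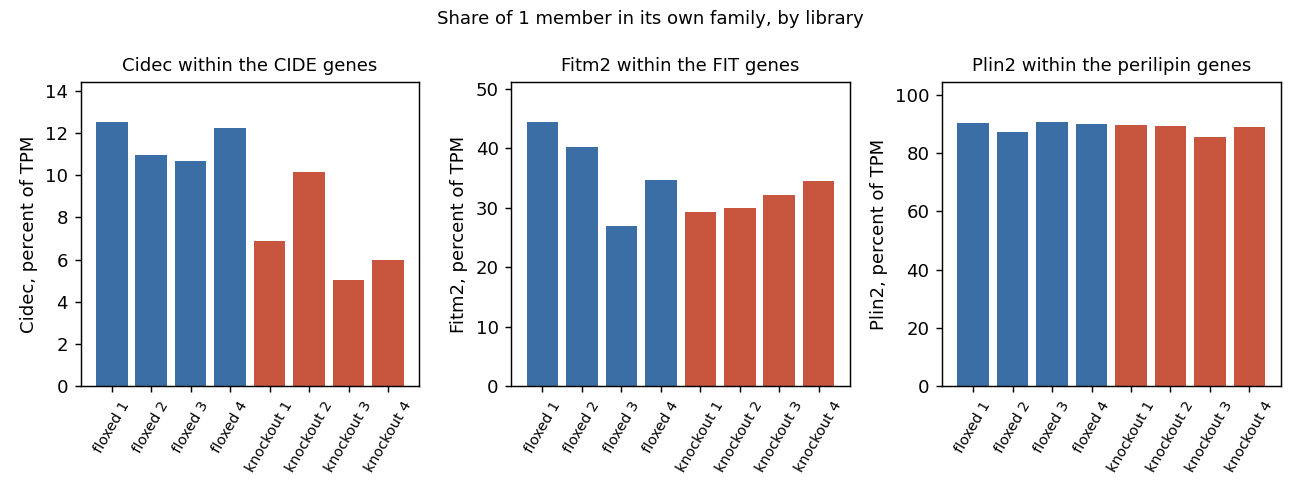
Share (percent of TPM, vertical axes from 0) of *Cidec* in the CIDE genes, *Fitm2* in the FIT genes and *Plin2* in the perilipin genes, 1 bar for each library, floxed controls first. The *Cidec* share was 10.7% or more in every control and 10.2% or less in every knockout, while the other 2 shares overlap between the groups.

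*Hsd17b13* codes for a droplet-bound dehydrogenase of hepatocytes, and it had the highest mean level of the 10 genes in both groups. Floxed controls 1 to 4 held 687, 695, 680 and 668 TPM, and knockouts 1 to 4 held 577, 573, 681 and 710 TPM. The controls lay close together (coefficient of variation 1.64%), while knockouts 1 and 2 lay under all controls and knockout 4 above all of them (11.1%). The groups overlapped (log2 difference -0.11 ± 0.08 SE, adjusted p = 0.840 in limma), and no test of the spread was made. The difference was -0.06 without knockout 2 and -0.17 without knockout 4. Its neighbour on chromosome 5, *Hsd17b11*, which codes for a related droplet enzyme, was at 133 to 152 TPM in the controls and 133 to 143 TPM in the knockouts (log2 difference -0.03, adjusted p = 0.973 in limma).

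In the floxed controls the order of mean levels was *Hsd17b13* (683 TPM), *Plin2* (623), *Cideb* (348), *Cidec* (45.8), *Plin5* (42.8), *Fitm1* (32.3), *Plin3* (22.5), *Fitm2* (18.3), *Plin4* (7.02) and *Cidea*. Neighbours whose ranges over the 4 controls overlapped were *Hsd17b13* and *Plin2*, *Cidec* and *Plin5*, *Plin5* and *Fitm1*, *Fitm1* and *Plin3*, and *Plin3* and *Fitm2*. In the knockouts *Cidec* (27.1 TPM) came after *Plin5* (37.1) and *Fitm1* (28.7). Its range there (18.95 to 39.73 TPM) took in those of *Plin5*, *Fitm1* and *Plin3*. In knockout 2 it stood at 39.73 TPM, above *Plin5* at 39.19 TPM. In that group it was above *Plin3* in 2 of 4 libraries. The order of the other 9 genes was the same in both groups.

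The libraries that were low differed between genes. Knockout 3 had the lowest *Cidec* and *Plin2* of the 8 libraries, knockout 1 the lowest *Fitm2* and *Plin5*, and knockout 4 the lowest *Plin4*. Knockout 2 was the highest knockout for 4 of the 9 tested genes and lowest for 1. The summed TPM of all 10 genes, most of it from *Hsd17b13*, *Plin2* and *Cideb*, was 1748 to 1898 TPM in the controls and 1589 to 1714 TPM in the knockouts and did not overlap. These sums were looked at after the single values and carry no test.

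**Figure D3:**
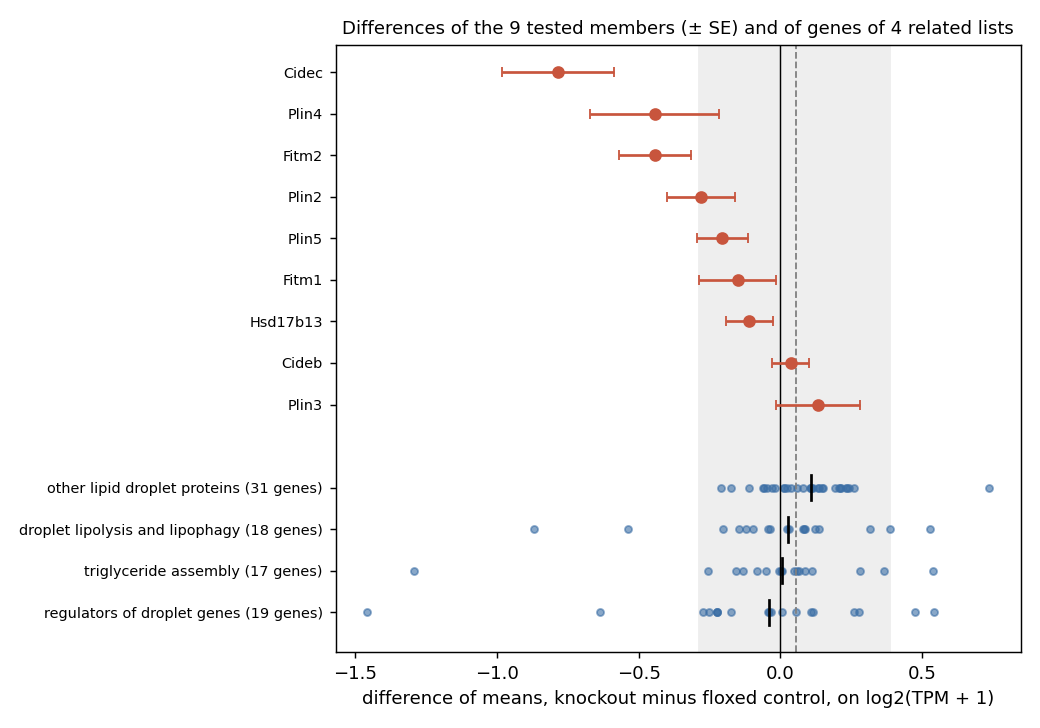
Differences of means on the log2(TPM + 1) scale (horizontal axis, knockout minus control). Red points with SE are the 9 tested members, blue points are genes of 4 related lists with their medians as black ticks, the grey band spans the 5th to 95th percentile of all 12710 genes (-0.29 to 0.39) and the dashed line is their median; *Cidec*, *Plin4* and *Fitm2* lie to the left of the band.

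Other genes of droplet biology were read from 4 lists, and none of their tested members passed an adjusted p of 0.05 in limma. Of 34 other droplet proteins, 33 were in the table and 31 tested. Values were higher in 23 and lower in 8, with a median difference of 0.11, and at an unadjusted p under 0.05, 2 were higher and 0 lower. Of all genes tested, 5.57% were higher and 2.45% lower at that level of p, and 35.4% had lower values, which are the shares that the counts of all 4 lists are read against. The 2 higher genes of 31 are near that background. *Acsl3*, which loads fatty acids onto coenzyme A on nascent droplets, had 6.64, 9.13, 6.99 and 5.21 TPM in floxed controls 1 to 4 against 9.50, 10.75, 12.61 and 16.67 TPM in knockouts 1 to 4, without overlap (log2 difference 0.74 ± 0.19 SE, adjusted p = 0.246 in limma). *Mettl7b*, a droplet-associated methyltransferase, had a difference of 0.26, *Spg20*, the gene of the droplet protein spartin, 0.24, and *Mospd2*, which tethers the endoplasmic reticulum to other organelles, 0.24. The groups did not overlap in *Mettl7b* and *Mospd2* either. With *Acsl3* these were 3 of the 31 tested, all higher, against 3.29% of all genes in that direction. *Plin1*, the perilipin of adipocytes, was listed at 0 in all 8 libraries.

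Of 18 genes of droplet lipolysis and lipophagy, 8 had lower and 10 higher values (median 0.03), and 2 were lower and 1 higher at an unadjusted p under 0.05 (2.45% and 5.57% of all genes). The 1 higher gene of 18 is near the background. *Pnpla2*, the triglyceride lipase ATGL, was at 74.2, 101.29, 69.0 and 96.7 TPM in the controls and 65.7, 61.7, 60.4 and 45.3 TPM in the knockouts. These groups did not overlap (log2 difference -0.54, adjusted p = 0.293 in limma). *G0s2*, the inhibitor of that lipase, was at 176, 61.6, 217 and 172 TPM in the controls and 56.0, 96.8, 61.5 and 107 TPM in the knockouts, where floxed control 2 lay among the knockouts (-0.87, adjusted p = 0.581 in limma). *Aadac*, a lipase of the endoplasmic reticulum, had higher values in all 4 knockouts, at 293 to 324 TPM against 223 to 265 TPM (0.32, adjusted p = 0.206 in limma). The carboxylesterase gene *Ces1d* had a difference of 0.53 with overlapping groups, and of 0.31 without knockout 4, its highest library.

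Of 18 genes of triglyceride assembly, 17 were tested, 7 with lower and 10 with higher values (median 0.0045), and 1 was lower and 2 higher at an unadjusted p under 0.05 (2.45% and 5.57% of all genes). The 7 lower values of 17 are near the 35.4% of all genes. *Tm6sf2*, which serves the lipid loading of secreted lipoproteins, was at 16.9 to 22.1 TPM in the controls and 23.9 to 33.1 TPM in the knockouts (log2 difference 0.54, adjusted p = 0.203 in limma). *Agpat2*, an acyltransferase that makes phosphatidic acid, was at 127 to 165 TPM in the controls and 169 to 183 TPM in the knockouts (0.28, adjusted p = 0.364 in limma). *Lpin1*, which makes the diacylglycerol used for triglyceride, was at 39.2, 71.4, 29.4 and 77.2 TPM in the controls and 12.1, 25.5, 34.2 and 14.8 TPM in the knockouts (-1.29, adjusted p = 0.284 in limma). Knockout 3 lay above floxed control 3 in *Lpin1*. *Agpat3* had a difference of -0.16, without overlap of the groups.

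Of 19 regulators known to act on droplet genes, 11 had lower and 8 higher values (median -0.04), and 2 were lower and 0 higher at an unadjusted p under 0.05, where 2.45% and 5.57% of all genes were and 35.4% had lower values. *Nr1d1*, the clock repressor REV-ERB alpha, was at 52.2, 58.2, 28.8 and 58.0 TPM in the controls and 9.42, 26.4, 36.9 and 7.94 TPM in the knockouts (log2 difference -1.46, adjusted p = 0.320 in limma). *Cebpb*, a liver transcription factor of the CCAAT enhancer family, had a difference of -0.63 (adjusted p = 0.473 in limma), *Ppard* 0.54 and *Hnf4a* -0.22. *Ppard* was at 0.32 without knockout 4 and at 0.33 with a pseudocount of 5, and *Hnf4a* at -0.13 without knockout 1. The PPAR genes *Ppara* and *Pparg* had overlapping groups, *Ppara* at 26.7 to 39.7 and 23.8 to 34.6 TPM and *Pparg* at 8.56 to 14.7 and 13.6 to 17.3 TPM in controls and knockouts. Since libraries of 1 group differed in *Nr1d1* by several fold and no time of collection is given, the part of the time of day in these levels was not tested.

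The genes whose levels ran most like each member over the 8 libraries were listed by Pearson correlation of log2(TPM + 1), 2 for each member given here. These values describe 8 points that share the difference between the groups, and the highest of so many correlations is high in any such table. For *Fitm2* they were *Cpt1a* (r = 0.98, and 0.93 after subtracting each group's mean) and *Pex11a* (0.97 and 0.94), which serve the oxidation of fatty acids in mitochondria and the division of peroxisomes. *Cpt1a* was at 185, 193, 139 and 151 TPM in the controls and 105, 125, 121 and 125 TPM in the knockouts, so that floxed control 3 was the lowest control and knockout 1 the lowest knockout in both genes. For *Cidec* they were *Myo19*, a myosin of mitochondria (0.97 and 0.94), and *Stard10*, a phospholipid transfer protein gene (0.95 and 0.86). For *Plin5* they were the zinc exporter gene *Slc30a1* (0.97 and 0.92) and *Surf6* (0.97 and 0.91). For *Hsd17b13* they were *Zfp777* (0.95 and 0.93) and *Noct* (0.94 and 0.94), which codes for the rhythmic protein nocturnin. *Noct* had 13.84, 13.65, 11.74 and 10.17 TPM in the controls against 6.59, 6.35, 11.73 and 11.11 TPM in the knockouts, with knockouts 1 and 2 low in both genes. The others were *Gsap* and *Slc26a10* for *Plin3*, *Mrpl17* and *Tox* for *Plin4*, *Polr2h* and *Rpl15* for *Fitm1*, and *Syn3* and *Fastkd5* for *Cideb*, at 0.88 to 0.99. After subtracting each group's mean, these correlations were 0.89 to 0.998. *Syn3* (0.54 to 1.91 TPM) and *Fastkd5* (0.17 to 2.45 TPM) were low genes, so their match to *Cideb* rests on small values.

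Markers of the cells that could carry these transcripts were summed in each library. Of 15 hepatocyte markers, 13 had lower values in the knockout, against 35.4% of all genes, with a median difference of -0.09. At an unadjusted p under 0.05, 4 were lower and 0 higher (2.45% and 5.57% of all genes), and none passed an adjusted p of 0.05 in limma (smallest 0.204). The groups did not overlap in 4 of the 15, all lower (*Ahsg*, *Apoa1*, *Arg1* and *Serpina1a*), against 1.46% of all genes. The droplet members with lower values thus stood beside hepatocyte markers with lower values, and the part of the one in the other was not tested. Endothelial markers also had lower values, in 9 of 11 tested (median -0.23). Lower values were fewer among markers of macrophages (4 of 13 tested), stellate cells (2 of 11), lymphocytes (1 of 7) and cholangiocytes (0 of 6). The macrophage marker *Marco* was lower without overlap of the groups (log2 difference -0.84, adjusted p = 0.0609 in limma). The summed level of the 15 hepatocyte markers was 110901 to 129133 TPM in the controls and 101371 to 115251 TPM in the knockouts, with floxed control 4 the highest. In whole liver, fewer cells of a type and less RNA for each cell cannot be told apart. Of 12 adipocyte markers, 4 were tested and had lower values, with a sum of 54.1 to 65.9 TPM in the controls and 45.4 to 59.9 TPM in the knockouts, most of it from *Fabp4* and *Thrsp*. *Plin1* and *Lep* were listed at 0 in all libraries and *Adipoq*, which marks fat cells, in 7 of 8, with 0.38 TPM in floxed control 2. Macrophages also hold droplets, and the 14 macrophage markers summed to 868 to 1735 TPM in the controls and 1162 to 1675 TPM in the knockouts. Floxed control 4 was the lowest of all libraries in the sums of macrophage, stellate cell (396 TPM, against 648 to 828 TPM), endothelial (68.1 TPM, against 87.1 to 151 TPM) and lymphocyte markers (16.8 TPM, against 24.6 to 45.1 TPM). It was also the lowest of all libraries in *Plin3*. Leaving it out gave differences of -0.73 for *Cidec*, -0.45 for *Fitm2*, -0.33 for *Plin2* and -0.24 for *Plin5*. The 3 genes whose groups did not overlap could only stay so with a library left out. Of all genes, 4.57% then had no overlap in that direction. The part of the other marker sums in the differences was not tested.

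**Figure D4:**
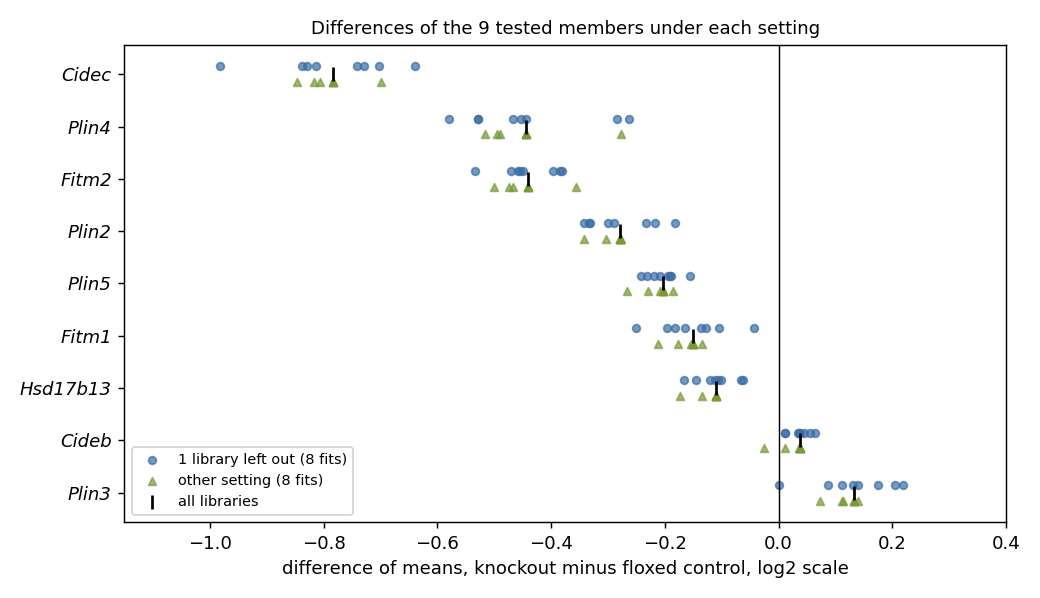
Differences of means (horizontal axis, log2 scale, knockout minus control) of the 9 tested genes with all libraries (black ticks), with 1 library left out (blue points, 8 fits) and under the other settings (green triangles, 8 fits). *Cidec* stays between -0.98 and -0.64, and *Cideb* is the gene with a value on either side of 0.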

How the data were processed

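RNA was measured in 8 liver libraries, 4 for each group, grouped and numbered by the sample titles. The authors deposited TPM values, rounded to 2 decimals, and the kit was stranded, per the labels. RSEM 1.3.3 and GRCh38.p13, a human build, are named per the submitters' processing notes, although identifiers are of mouse genes. No aligner, annotation release or strand setting is named, so expression values carry no coordinates here. Symbols matched 52083 of 55416 identifiers.

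TPM are not counts, and their depth is unknown. Values were compared as log2(TPM + 1), with a pseudocount of 1, in limma 3.58.1 under R 4.3.3 (lmFit, eBayes with trend, no covariate), for the 12710 genes that reached 1 TPM in 4 or more libraries, with Benjamini-Hochberg adjustment over all of them and a threshold of 0.05. The procedure was tested on simulated data. Named are the 10 members, *Smpd3*, up to 4 genes of smallest p of each related list, and the 2 genes most like each tested member, of which those for *Plin2* are not reported here. *Hsd17b11*, *Ppara*, *Pparg*, *Nop9* and single markers were named after their values were seen. The members and lists were chosen with earlier results of these data known. Samples with the same number did not deviate together, so the numbers were not used as pairs. Tried as well were a replicate block, fits lacking 1 library, robust eBayes, a pseudocount of 0.1 or of 5, all genes above 0, genes whose mean was 5 TPM or more, scaling by the median of ratios, and TPM rescaled after removal of the mitochondrial transcripts and the 20 top genes. Promoter windows came from RefSeq (GRCm38.p6) and exon overlaps from GENCODE M21. No window was searched for *Cidea*.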

Additional observations from a re-analysis of the deposited data

Results flagged for a closer look

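In groups of 4, a library was marked where its gap to the nearest of the others, divided by the range of the group, exceeded Dixon's 95% critical value, and chance marks about 1 in 20 groups. Of 54 groups (27 genes in each genotype), 3 were marked. *Plin5* in floxed control 4 was 39.42 TPM, against 43.65 TPM in the nearest control (gap of 0.892 of the range). *Mospd2* in knockout 4 was 19.43 TPM, against 17.22 TPM in the nearest knockout (0.867). *Spg20* in knockout 1 was 10.78 TPM, against 14.53 TPM in the nearest knockout (0.876).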

How the results depend on the processing

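The number of genes past the threshold was 13 of all genes tested with all libraries. It was 8 with a pseudocount of 0.1, 6 with a pseudocount of 5, 0 without a filter and 20 after rescaling without mitochondrially encoded and the 20 most abundant genes, and it ranged from 0 to 16 with 1 library left out (5 when knockout 1 was dropped, 3 for floxed control 4, 2 for knockout 2, and 0 for floxed control 1 and for knockout 3). *Smpd3* kept a log2 difference of -1.89 without a filter (adjusted p = 0.167 in limma) and ranged from -2.06 to -1.76 with 1 library left out, where its adjusted p in limma exceeded 0.05 in 5 of 8 fits. With the replicate block 0 genes passed, and *Smpd3*, at -1.89, had an adjusted p of 0.0818 in limma. Same-numbered libraries correlated at -0.153, 0.0308, -0.153 and -0.195 in their deviations from the group means, so the numbers were not read as pairs, and at an unadjusted p under 0.05, 743 genes passed with the block and 1019 without it. None of the 9 members passed under any of these settings (smallest adjusted p 0.101). Of the 9, *Cideb* changed sign, at -0.026 after median-of-ratios scaling, and the other 8 kept theirs. The count of members lower at an unadjusted p under 0.05 was 2 to 4. Over all genes fitted, 743 (replicate block) to 1539 (no filter, 26719 genes) were under that p in either direction. Without knockout 1 these counts were 2 members and 1396 genes. *Cidec*, *Fitm2* and *Plin5* did not overlap with all libraries, and leaving 1 out cannot make such groups overlap. They were joined by *Plin2* without knockout 2 and by *Plin4* without knockout 3. Fewer libraries make groups without overlap more common among all genes too (1.86% to 4.57% lower, against 1.46% with all libraries). The cause of these changes was not tested.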
